A study of Mus musculus with 4 samples.

Results

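Medulloblastomas of Math1-Cre;SmoM2 mice were compared with normal mouse cerebellum by total RNA hybridised to 3 Affymetrix Mouse Gene 1.0 ST arrays, out of 4 arrays in the series. Samples were taken by their titles: the medulloblastoma of a Math1-Cre;SmoM2 mouse aged 1 month, the medulloblastoma of a Math1-Cre;SmoM2 mouse aged 2 months, and whole cerebellum from a wild-type mouse that was 2 months old. The array of a tumour of another genotype was left out. All 3 samples came from a mixed C57BL/6 and C3H background, and the tumours had formed spontaneously. SmoM2 is an activated form of Smoothened, and Math1-Cre switches it on in cells of the Math1 (Atoh1) lineage, so that other cerebellar cell types carry it only if they descend from that lineage. The labels do not say how many animals stand behind a sample. Only the spread between these 2 tumours enters the tests, and limma moderates each gene's spread by that of all probe sets. The tumours also differ in age by a month and, by Xist and Y-linked genes, in sex. The lone cerebellum was assumed to vary like the tumours. All single-symbol probe sets were used, with 1 probe set for each of 19938 genes.

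Sonic hedgehog made by Purkinje cells drives the division of granule neuron progenitors in the outer layer of the young cerebellum. The ligand binds Patched1, which otherwise holds Smoothened in check, and active Smoothened lets the Gli transcription factors switch on genes such as Gli1, Ptch1 and Ccnd1. Progenitors normally leave the cell cycle, migrate inward and become the small excitatory granule neurons that make up most of the adult cerebellum. With Smoothened constantly active they keep dividing and can form medulloblastoma.

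A gene's level is its deposited log2 value, so a difference of 1 is a doubling. Differences are the mean of both tumours minus the cerebellum, and ± gives the standard error from limma. In both tumours, 1069 genes (5.36% of 19938) were at least 2-fold higher than in the cerebellum and 1500 genes (7.52%) at least 2-fold lower, together 12.9%. By limma with Benjamini-Hochberg adjustment over all 19938 genes, 552 genes (2.77%) rose and 816 (4.09%) fell at an adjusted p under 0.05, and each of these was also 2-fold changed in both tumours. "Rose" and "fell" are used below for these genes only. The test had 1 residual degree of freedom among the samples, and the smallest differences it called were 1.45 upward and -1.42 downward. The remaining 517 higher and 684 lower genes were past 2-fold in both tumours without passing the test. At 4-fold in both tumours the lower genes were still more numerous, with 349 higher and 434 lower. At 8-fold the order turned, with 144 higher and 102 lower, and at 16-fold there were 51 higher and 7 lower. The median absolute difference between the tumours, each a single array, was 0.25. The median absolute difference of their mean from the cerebellum was 0.31, so a typical gene differed little in either comparison.

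**Figure D1:**
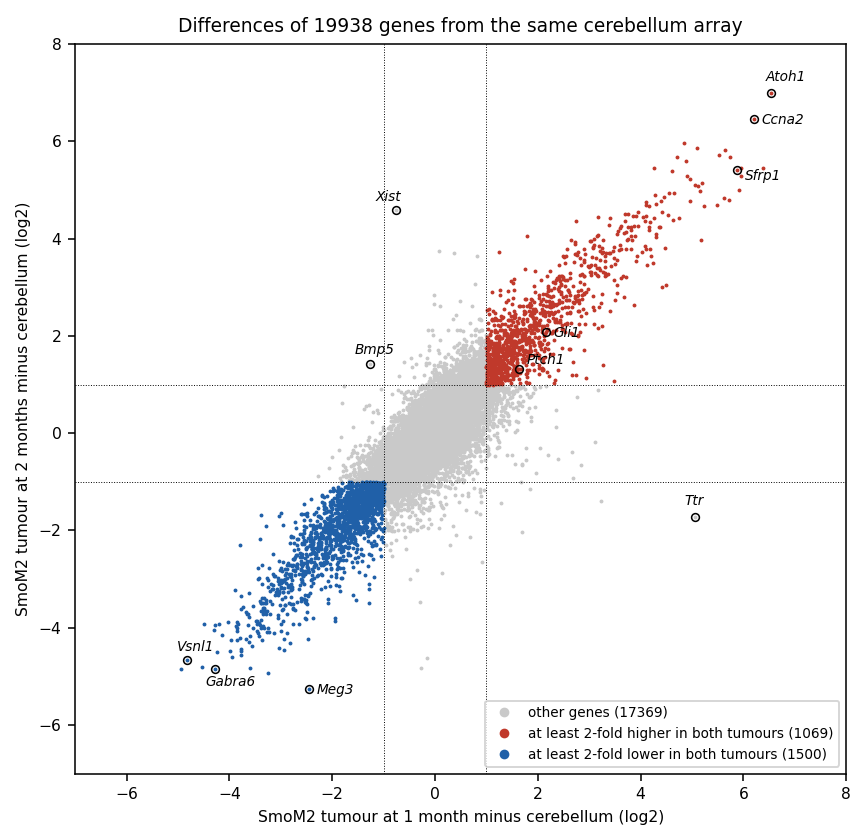
Difference from the cerebellum in the 1-month tumour (horizontal axis, log2) against that in the 2-month tumour (vertical axis, log2), 1 point per gene for 19938 genes; dotted lines mark 2-fold. The 1069 red genes and 1500 blue genes passed 2-fold the same way in both tumours. Both axes share the cerebellum array, so part of the diagonal comes from that shared value; Ttr, Bmp5, Xist and Meg3 lie off it.

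The upper end of the ranking held genes of cell division and of the granule progenitor state. Atoh1, the transcription factor that defines granule neuron progenitors, came first among genes ranked by the tumour nearer to the cerebellum. Its level was 4.85 in the cerebellum, 11.39 in the 1-month tumour and 11.84 in the 2-month tumour, and it rose by 6.76 ± 0.31 (limma adjusted p = 0.0161). It was followed by Ccna2, the cyclin of S phase and mitotic entry, by Top2a, the DNA topoisomerase of dividing cells, by Ect2, which starts the cleavage furrow, and by Pclaf, which binds the replication clamp. Cdk6, Lcn2, Sfrp1, Nhlh1 and Kif11 completed the first 10. Of the 25 genes with the largest differences upward, 20 were in a list of genes described below. So were 345 of all 1069 genes at least 2-fold higher in both tumours. The lists together hold 1593 different genes, out of 19938 measured. They were chosen with earlier results of these data known, so membership of the top genes is no separate support. Sstr2, a somatostatin receptor, was among the top 25 genes in no list, with 5.55 in the cerebellum, 10.27 at 1 month and 11.22 at 2 months.

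Neuronal genes were at the lower end of the ranking. There 11 of the 25 genes were in a list, against 265 of all 1500 genes at least 2-fold lower in both tumours. Ppp1r17, which encodes an inhibitor of protein phosphatases in Purkinje cells, came first, with 10.60 in the cerebellum, 5.66 at 1 month and 5.75 at 2 months, and fell by 4.89 ± 0.26 on the log2 scale (limma adjusted p = 0.0161). Vsnl1, a neuronal calcium sensor, stood at 13.22 in the cerebellum, 8.39 at 1 month and 8.55 at 2 months. Next came Olfm3, Gabra6, the GABA-A receptor subunit of granule neurons, and Eno2, the neuronal enolase. All 50 genes of both rankings passed the test, and the highest limma adjusted p was 0.0169. They were picked by size from the same arrays, so their passing is no separate support. In 117 of the 1069 higher genes, Atoh1 and Ccna2 among them, the cerebellum level was under the lower quartile of genes in its array (5.09). A level so low may be background, and these differences have no reliable size. The same held for the tumours in 81 of the 1500 lower genes.

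**Figure D2:**
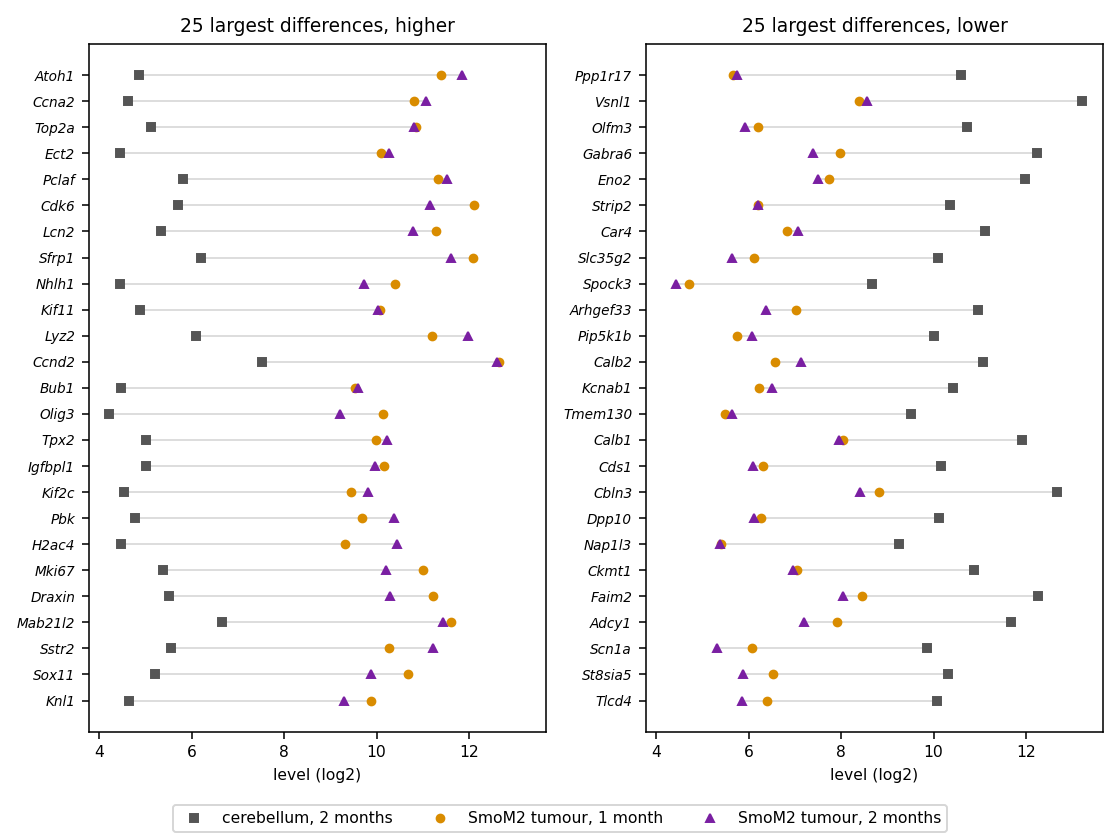
Levels (log2) of the 25 genes with the largest upward (left) and downward (right) differences in the cerebellum (squares), the 1-month tumour (circles) and the 2-month tumour (triangles), with 1 array for each symbol. The tumour symbols lie close together and far from the cerebellum in each row; Atoh1 runs from 4.85 to 11.84 and Vsnl1 from 13.22 to 8.39.

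Genes named in the genotypes and their direct readouts came next. Smo stood at 7.40 in the cerebellum, 10.02 in the 1-month tumour and 10.69 in the 2-month tumour, and rose by 2.95 ± 0.37 (limma adjusted p = 0.0252). Whether RNA of the SmoM2 allele contributes to this signal was not tested. Gli1, a Gli factor that is itself switched on by Hedgehog signalling, had a level of 7.21 in the cerebellum, 9.37 at 1 month and 9.29 at 2 months, and rose by 2.12 ± 0.26 (limma adjusted p = 0.0237). Ptch1, both receptor and target, was at 10.24, 11.88 and 11.55 in the same order. Both tumours were past 2-fold, and the Ptch1 difference of 1.48 ± 0.29 did not pass the test (limma adjusted p = 0.0583), though it passed under 4 of 6 other settings of the fit, with adjusted p between 0.0142 and 0.171.

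The 2-fold genes were then read through 56 lists of pathways and cell types. Shares of a list are best read against the shares of all genes, 5.36% higher and 7.52% lower. The lists were chosen with earlier results of these data known, so a high share is no separate support. In the highest lists, those of cell division, between 62.2% and 91.3% of the measured genes were at least 2-fold higher in both tumours. In the lowest, those of granule neurons, Purkinje cells and synaptic vesicles, between 71.1% and 83.3% were at least 2-fold lower.

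**Figure D3:**
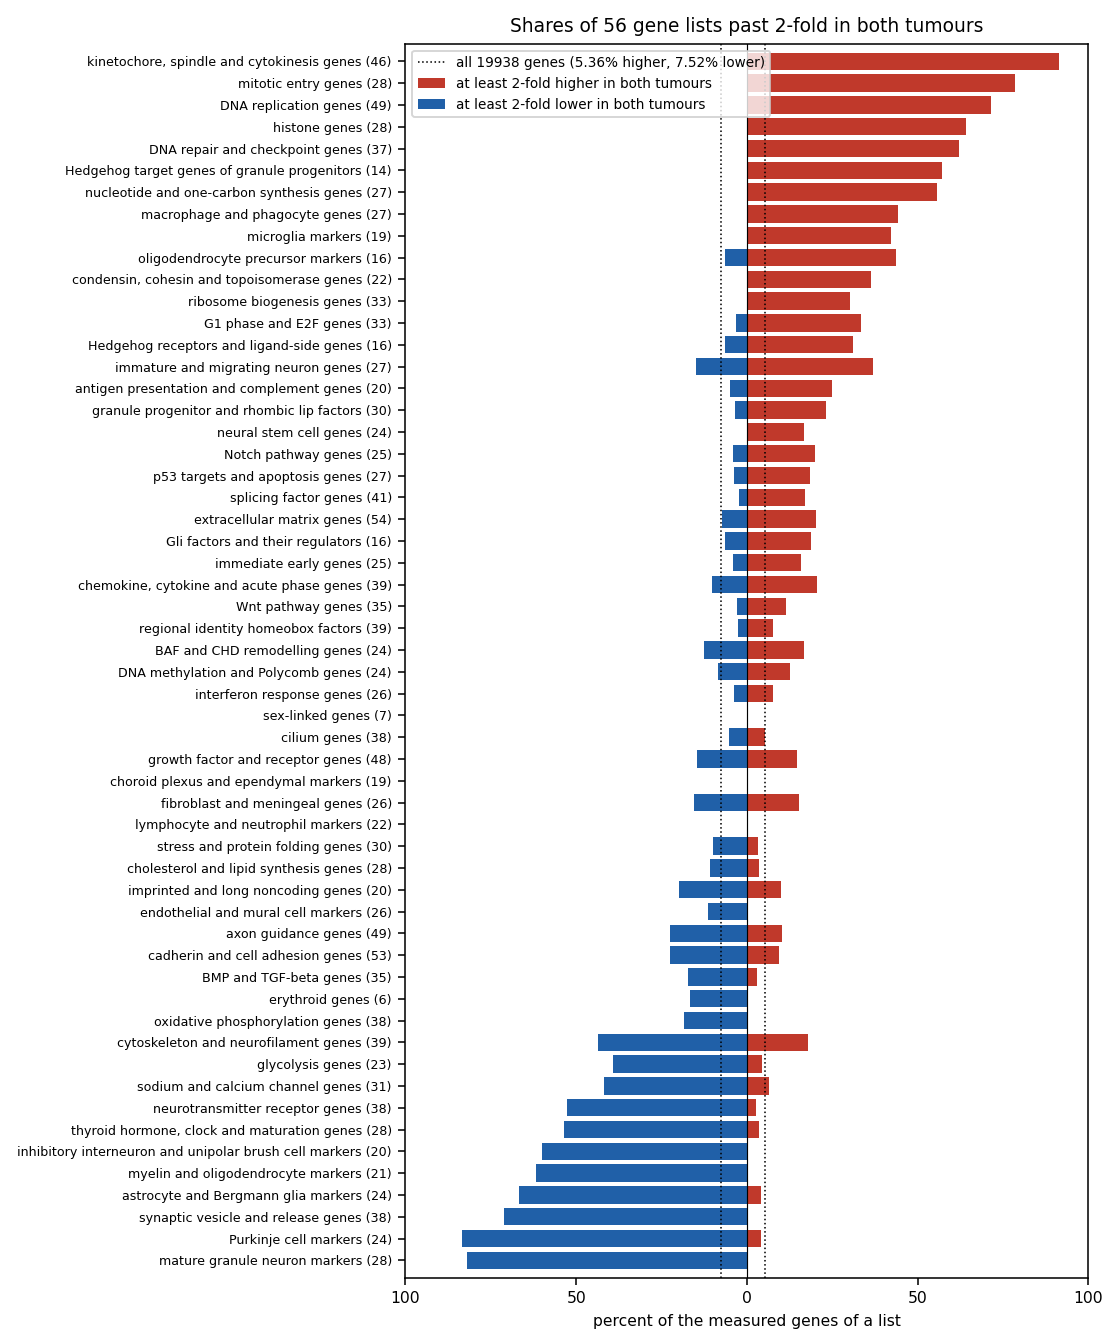
Percent of the measured genes of each of 56 lists that were at least 2-fold higher (red, right) or lower (blue, left) in both tumours, with the number of measured genes in brackets; dotted lines give the shares of all 19938 genes (5.36% and 7.52%). Kinetochore, spindle and cytokinesis genes reach 91.3% on the right, and Purkinje cell markers reach 83.3% on the left.

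Among Hedgehog receptors and ligand-side genes, 5 of 16 were at least 2-fold higher and 1 was at least 2-fold lower, and Smo was the only gene of the list that rose. Hhip, a decoy receptor induced by the pathway, was at 6.29 in the cerebellum, 7.61 at 1 month and 8.67 at 2 months. The coreceptors Gas1 (7.99, 9.17 and 9.52 in that order) and Boc (8.92, 9.93 and 9.95) were also higher in both tumours. Disp2, a member of the Dispatched family, was lower in both, at 9.80, 7.95 and 7.03. None of these 4 passed the test (limma adjusted p between 0.059 and 0.117).

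Gli2, the main activator downstream of Smoothened, went from 5.97 in the cerebellum to 8.38 and 8.27 in the tumours at 1 and 2 months, a rise of 2.35 ± 0.26 (limma adjusted p = 0.0206). Sufu, which holds Gli proteins inactive in the cytoplasm, rose as well, from 7.26 to 9.40 and 9.31. Spop, an adaptor that marks Gli2 and Gli3 for degradation, fell from 11.62 to 9.96 and 10.22 (limma adjusted p = 0.0498). The activator and the inhibitor of the pathway were thus both higher, and 12 of the 16 Gli factors and regulators stayed under 2-fold in at least 1 tumour.

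Of 14 Hedgehog target genes of granule progenitors, 8 rose and none was 2-fold lower in both tumours; the median difference of the list was 3.39, against 0.05 for all genes. Cdk6, the G1 kinase, was at 5.71 in the cerebellum, 12.10 at 1 month and 11.16 at 2 months. Sfrp1, a secreted Wnt antagonist, was at 6.21, 12.08 and 11.62 in the same order. Ccnd2, cyclin D2, was at 7.52, 12.64 and 12.61. Mycn, the Myc factor that drives division of these progenitors, rose by 4.58 ± 0.29 from 6.34 to 11.08 and 10.77 (limma adjusted p = 0.0161). The targets Foxm1 (rise of 4.06), Cxcr4 (3.51), Ccnd1 (3.48) and Pdgfra (3.29) followed. The remaining 6 targets (Bmi1, Bcl2, Hes1, Ptpn11, Igf2 and Nkx6-2) did not reach 2-fold in both tumours, so the list was split between a strongly higher group and one near the level of the cerebellum.

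Factors of the rhombic lip, the germinal zone from which granule progenitors arise, held a smaller higher group. At least 2-fold higher in both tumours were 23.3%, against 57.1% of the Hedgehog targets, and the median difference was 0.5. Of 30 measured, 7 rose and 1 fell. None of the 4 Zic genes measured was past 2-fold in both tumours. The basic helix-loop-helix genes Nhlh1 (4.44 in the cerebellum, 10.40 at 1 month and 9.73 at 2 months) and Olig3 (4.22, 10.14 and 9.21) rose together with Atoh1. Insm1, a zinc finger gene of dividing neuronal progenitors, rose by 4.19 ± 0.27, and Barhl1, a homeobox gene downstream of Atoh1, rose by 3.46 ± 0.33 (limma adjusted p = 0.0161 and 0.0165). Neurod6 and Hey1 rose less, by 2.36 and 1.60. Neurod1, the factor of granule cells leaving the cycle, was at 11.95, 11.10 and 10.00 and did not pass the test. The fall was in Tfap2b, an interneuron factor, from 7.94 to 5.25 and 5.26.

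Among 39 regional homeobox factors, Otx1 rose from 5.58 to 8.03 and 7.97 and Alx4 from 5.73 to 7.20 and 7.34, and En2, which patterns the midbrain and cerebellum, fell from 10.55 to 8.63 and 8.49 (limma adjusted p = 0.027). Otx2, a factor of the forebrain and of granule progenitors, differed between the tumours, with 7.28 in the cerebellum, 9.18 at 1 month and 8.10 at 2 months. In 35 of the 39 at least 1 tumour was under 2-fold.

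Genes of immature, migrating neurons were partly higher. Of 27, 10 were at least 2-fold higher and 4 at least 2-fold lower in both tumours, 7 rose and 1 fell, and the median difference was 1.04 at 1 month and 0.34 at 2 months. Sox11, a transcription factor of newborn neurons, rose by 5.08 ± 0.41 from 5.20 to 10.69 and 9.88, and its relative Sox4 rose by 3.99 ± 0.29 from 6.22 to 10.04 and 10.39 (limma adjusted p = 0.0161 for both). Igfbpl1 was at 5.00 in the cerebellum, 10.16 at 1 month and 9.97 at 2 months. Dcx, the microtubule-binding protein of migrating neurons, rose from 5.32 to 9.80 and 8.36, a gap of 1.44 between the tumours. Dpysl3 and Tubb2b also rose, by 2.81 and 2.42. Unc5c, a netrin receptor, fell from 9.27 to 7.23 and 6.59. Of 24 neural stem cell genes only Nes, the intermediate filament nestin, passed the test, rising from 5.64 to 8.61 and 9.09; Vim, Msi1 and Sox1 were past 2-fold in both tumours without passing it.

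Cell cycle genes accounted for much of the upper ranking. Of 33 G1 phase and E2F genes, 10 rose and none fell. Myc rose by 3.91 ± 0.36 from 5.73 to 9.33 and 9.95, and Mycl by 3.48 ± 0.29 from 6.16 to 9.47 and 9.81 (limma adjusted p = 0.0165 and 0.0161). E2f1, E2f7 and E2f8 rose by 2.74, 2.05 and 3.54, and the kinases Cdk2 and Cdk4 by 3.07 and 2.75. The inhibitor Cdkn2c, which blocks Cdk4 and Cdk6, rose too, by 2.83. Cdkn2a was at 6.09 in the cerebellum, 6.44 at 1 month and 8.44 at 2 months, and Cdkn2b at 6.51, 6.96 and 8.20, so that both were 2-fold higher in the 2-month tumour alone.

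DNA replication genes were higher as a set: 35 of 49 were at least 2-fold higher, 26 rose and none was 2-fold lower in both tumours, with a median difference of 1.96. Pclaf was at 5.81 in the cerebellum, 11.33 at 1 month and 11.53 at 2 months. Uhrf1, which carries DNA methylation through replication, rose by 5.00 ± 0.40 from 5.51 to 10.12 and 10.89 (limma adjusted p = 0.0161). The helicase subunits Mcm6 (6.51, 10.61 and 10.97) and Mcm3 (5.93, 9.79 and 10.40), the origin kinase subunit Dbf4, and Mcm10 and Gins1 of the helicase complex all rose. A further 9 genes were past 2-fold in both tumours without passing the test, with differences from 1.21 for the origin subunit Orc1 to 1.96 for the polymerase subunit Pold1, and with Fen1, Pola1, Pold3, Rfc2 and Rpa2 among them. The other 14 were not 2-fold higher in both, and ran from 1.44 for the polymerase subunit Pold2 to -0.23 for the origin subunit Orc4.

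Mitotic entry genes rose in 20 of 28 cases, with a median difference of 2.85. Ccna2 was at 4.61 in the cerebellum, 10.82 at 1 month and 11.06 at 2 months. Cdk1, the kinase that Ccna2 and the B cyclins activate, rose by 4.60 ± 0.36 from 5.32 to 9.61 and 10.22 (limma adjusted p = 0.0161). The mitotic kinases Aurkb (5.44, 9.54 and 10.21) and Plk1 (5.74, 9.64 and 10.20), and Ccnb2 and Cks2, rose by between 3.86 and 4.43. Every gene named here was slightly higher in the 2-month than in the 1-month tumour, by less than 1.

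Promoters were sought for the 6 genes of both lists with the largest differences by the nearer tumour, and for Gli1, Ptch1 and Atoh1. None was listed for Ccna2, Aurkb or Gli1. The windows are the 250 bases before the start of the gene in RefSeq (build GRCm38.p6), 5′ to 3′ on the gene's strand, for Cdk1 (minus strand, chr10:69352913-69353162), Mcm6 (minus strand, chr1:128359706-128359955), Pclaf (plus strand, chr9:65890073-65890322) and the first listed start of Uhrf1 (plus strand, chr17:56303087-56303336). Capitals mark matches, on either strand, to the E2F letters TTCCCGC or TTGGCGC, the CHR letters TTTGAA, the CCAAT letters and the GLI letters CCACCCA.
Cdk1: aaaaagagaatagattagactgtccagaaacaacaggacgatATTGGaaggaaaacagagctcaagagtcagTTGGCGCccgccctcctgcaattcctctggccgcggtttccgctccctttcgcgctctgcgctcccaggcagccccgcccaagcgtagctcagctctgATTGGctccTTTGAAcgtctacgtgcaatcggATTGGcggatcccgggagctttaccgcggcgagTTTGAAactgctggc
Mcm6: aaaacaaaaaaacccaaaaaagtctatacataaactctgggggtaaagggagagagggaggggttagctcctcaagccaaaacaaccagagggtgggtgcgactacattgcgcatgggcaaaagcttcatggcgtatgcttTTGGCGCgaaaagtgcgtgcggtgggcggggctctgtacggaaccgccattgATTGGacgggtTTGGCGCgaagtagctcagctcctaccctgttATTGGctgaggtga
Pclaf: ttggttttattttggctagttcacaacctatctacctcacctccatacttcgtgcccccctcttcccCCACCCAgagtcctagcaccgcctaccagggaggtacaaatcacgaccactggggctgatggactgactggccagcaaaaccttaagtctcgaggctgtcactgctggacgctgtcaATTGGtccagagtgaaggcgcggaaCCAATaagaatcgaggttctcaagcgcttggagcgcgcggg
Uhrf1: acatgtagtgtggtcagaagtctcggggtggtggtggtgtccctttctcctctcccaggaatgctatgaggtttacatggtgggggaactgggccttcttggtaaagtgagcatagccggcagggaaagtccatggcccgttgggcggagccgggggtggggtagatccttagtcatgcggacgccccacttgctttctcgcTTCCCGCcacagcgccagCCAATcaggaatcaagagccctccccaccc

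The Cdk1 window held the E2F letters 1 time, the CHR letters 2 times and the CCAAT letters 3 times, and the Mcm6 window held the E2F and the CCAAT letters 2 times each. Of the windows not shown, that of Ptch1 held the E2F letters 1 time and no GLI letters. That of Atoh1 held the CCAAT letters 1 time and none of the others. The E2F letters were in 7.81% of the windows of all 15563 genes with a listed promoter, in 15.6% of those of the 855 genes at least 2-fold higher in both tumours, in 11 of 40 windows of DNA replication genes and in 2 of 20 windows of mitotic entry genes. CCAAT letters were in 35.5% of all windows, 42.6% of those of the higher genes, 22 of the 40 replication windows and 14 of the 20 mitotic entry windows. The CHR letters were in 13.7% of all windows, 127 of the 855 windows of the higher genes, 4 of the 40 and 6 of the 20. For the GLI letters the shares were 8.48% of all windows, 9.36% of those of the higher genes, 2 of the 40 and 3 of the 20. A match of TTGGCGC preceded by A also holds the CCAAT letters on the other strand, so those counts can share bases. These are counts of letters and were not tested.

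Of all lists, that of kinetochore, spindle and cytokinesis genes was the most uniformly higher: 42 of 46 genes were at least 2-fold higher, 39 rose and the median difference was 3.55. Ect2 was at 4.45 in the cerebellum, 10.10 at 1 month and 10.27 at 2 months. The spindle motors Kif11 (4.89, 10.07 and 10.04) and Kif2c (4.53, 9.45 and 9.82), the spindle assembly factor Tpx2 (5.01, 9.98 and 10.23), the checkpoint kinase Bub1 (4.47, 9.53 and 9.59) and the kinetochore scaffold Knl1 (4.64, 9.87 and 9.29) rose by 4.95 to 5.17. In 22 of the 46 genes the cerebellum level was under the lower quartile, and in none were the tumour levels. Among condensin, cohesin and topoisomerase genes, 8 of 22 rose. Top2a (5.12, 10.86 and 10.81) and the condensin subunits Ncaph, Ncapg and Smc2 led them, with rises of 4.18 to 5.71.

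DNA repair and checkpoint genes followed at smaller size. Of 37, 23 were at least 2-fold higher and 15 rose. Chek1, the kinase of the replication checkpoint, rose by 4.50 ± 0.30 from 4.88 to 9.17 and 9.58 (limma adjusted p = 0.0161), and Brca1, Exo1, Chek2 and Brip1 rose by 2.89 to 3.33. Atm, Brca2, Parp1 and Xrcc5 were past 2-fold in both tumours and did not pass the test. Of 27 p53 targets and apoptosis genes, 3 rose: Eda2r, a death receptor, from 4.87 to 9.05 and 9.19, Apaf1, the core of the apoptosome, from 7.07 to 8.88 and 8.66, and Trp53inp1 from 8.67 to 10.39 and 10.35.

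Genes that package and copy chromatin were also higher. Of 28 histone genes and histone chaperones, 18 were at least 2-fold higher and 14 rose. The core histone genes H2ac4 (4.48, 9.32 and 10.44) and H2bc3 (5.96, 9.71 and 10.47) rose by 5.40 and 4.13, and the linker histone H1f5 by 3.88 from 8.56 to 12.31 and 12.55. Copies within the histone clusters are nearly identical, so the level of a single copy is uncertain. Ezh2, the Polycomb methyltransferase, rose from 9.29 to 10.78 and 11.16 and was the only one of 24 DNA methylation and Polycomb genes to pass the test. Its relative Ezh1, typical of resting cells, was at 9.68, 8.66 and 8.25 (limma adjusted p = 0.0984). Among 24 remodelling genes of the BAF and CHD families, Smarcc1 and Actl6a, a subunit of the progenitor complex, rose by 1.96 and 1.62, and Dpf3 fell from 8.07 to 6.52 and 6.11. Actl6b, the neuronal counterpart of Actl6a, was at 8.79, 7.71 and 7.42 and did not pass the test.

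Of 41 splicing factor genes, 2 rose. Ptbp1, which represses neuronal exons, went from 8.63 to 10.94 and 11.10, a rise of 2.39 ± 0.26 (limma adjusted p = 0.0206), and Hnrnpab rose by 1.53. Rbfox1, a neuronal splicing factor, was at 10.70 in the cerebellum, 8.61 at 1 month and 7.30 at 2 months (limma adjusted p = 0.0724). Nucleotide and one-carbon synthesis genes were higher in 15 of 27 cases and rose in 7, led by the ribonucleotide reductase subunit Rrm2 (6.15, 9.56 and 10.57), the nucleoside transporter Slc29a1 (8.30, 11.91 and 12.08) and thymidylate synthase, Tyms (6.00, 8.82 and 9.25). Of 33 ribosome biogenesis genes, 10 were at least 2-fold higher and 2 rose, the helicase Ddx21 by 1.69 and Ftsj3 by 1.58, while the median of the list was 1.05.

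**Figure D4:**
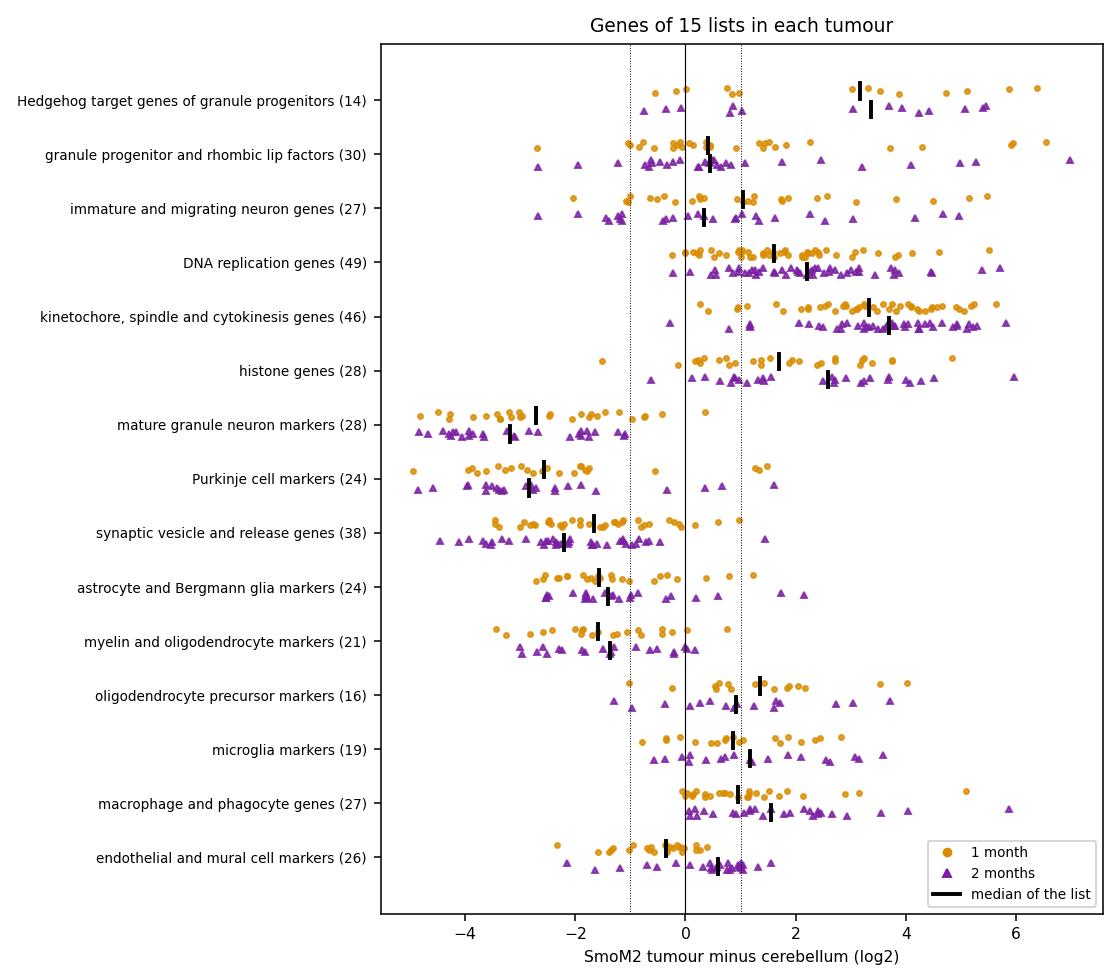
Difference from the cerebellum (log2, horizontal axis) of each measured gene of 15 lists, in the 1-month tumour (circles) and the 2-month tumour (triangles); bars are list medians, dotted lines mark 2-fold, and the number of genes is in brackets. Kinetochore, spindle and cytokinesis genes lie almost wholly to the right of 2-fold and mature granule neuron markers to the left; medians of endothelial and mural cell markers lie on opposite sides of 0.

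Markers of mature granule neurons were lower: 23 of 28 were at least 2-fold lower, 20 fell and none was 2-fold higher in both tumours, with a median difference of -3.18. Gabra6 was at 12.24 in the cerebellum, 7.97 at 1 month and 7.40 at 2 months. Cbln3, a secreted synapse organiser of granule neurons, fell by 4.06 ± 0.30 on the log2 scale from 12.67 to 8.81 and 8.40 (limma adjusted p = 0.0161). Slc17a7, the vesicular glutamate transporter of their axons, went from 11.28 to 7.66 and 6.98. Calb2, calretinin, and Car4 fell, with differences of -4.21 and -4.17. None of the 28 was under the lower quartile in both tumours. Reln differed between the tumours, with 10.54 in the cerebellum, 10.90 at 1 month and 8.64 at 2 months. In bulk tissue, fewer cells of a type and less RNA per cell cannot be told apart.

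Purkinje cell markers showed the same picture, with 18 of 24 falling and a median difference of -2.75. Calb1, calbindin, was at 11.92 in the cerebellum, 8.05 at 1 month and 7.96 at 2 months. Pvalb, parvalbumin, which cerebellar interneurons also make, went from 12.60 to 8.82 and 9.25. Car8 and Pcp4 fell, with differences of -3.67 and -3.35. Bcl11a, a transcription factor of this list that is also made by immature neurons, rose by 1.55, to 9.48 and 9.62 in the tumours. Among inhibitory interneuron and unipolar brush cell markers, 10 of 20 fell. They included the GABA synthesis enzymes Gad1 (10.56, 7.75 and 7.46) and Gad2 (9.55, 6.08 and 5.70), the inhibitory vesicle transporter Slc32a1 (9.87, 7.03 and 6.40) and the glycine transporter Slc6a5 (7.58, 5.18 and 5.19). Slc17a6, the vesicular glutamate transporter of immature granule cells, stood apart at 7.77 in the cerebellum, 10.62 at 1 month and 7.12 at 2 months.

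Genes of the synaptic machinery were lower. Of 38 synaptic vesicle and release genes, 27 were at least 2-fold lower and 18 fell, with a median difference of -2.05. Syt1, the calcium sensor of vesicle fusion, was at 11.97 in the cerebellum, 8.52 at 1 month and 7.85 at 2 months, and fell by 3.78 ± 0.37 on the log2 scale (limma adjusted p = 0.0172). Unc13c, Vamp1, Sv2a and Syt2 fell, with differences between -3.69 and -3.14. Rims1, an active zone scaffold, was lower by a similar amount at 10.76, 7.83 and 6.30 but missed the threshold, with the tumours 1.53 apart (limma adjusted p = 0.0507).

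Of 38 neurotransmitter receptor genes, 16 fell and 1 rose. The GABA-A subunit Gabrb2 was at 11.71 in the cerebellum, 8.34 at 1 month and 7.47 at 2 months. The metabotropic glutamate receptor Grm4 of parallel fibres went from 10.44 to 7.20 and 6.44, and the adult NMDA subunits Grin2a and Grin2c fell, with differences of -3.47 and -3.40. The rise was in Chrna3, a nicotinic acetylcholine receptor subunit, from 5.20 to 9.63 and 8.20 (3.71 ± 0.63, limma adjusted p = 0.0446). Gria2, an AMPA subunit, was split between the tumours at 10.02, 10.43 and 7.94.

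Sodium and calcium channel genes fell in 12 of 31 cases. The lowest differences were those of Scn2b (11.42, 7.81 and 6.60), Scn1a (9.86, 6.08 and 5.31) and Scn2a (11.95, 8.70 and 7.03). Scn3a, the sodium channel subunit of developing neurons, rose from 4.55 to 6.36 and 6.10 (limma adjusted p = 0.0412). At 1 month the median difference of this list was -0.48, at 2 months -1.78, so the 2-month tumour was the lower.

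Cytoskeletal genes went both ways: of 39, 5 rose and 11 fell. Tubb5, a tubulin of dividing and immature cells, rose from 10.29 to 13.10 and 13.40, and Tmsb10, Tubb2b, Marcksl1 and Marcks rose by 1.64 to 2.54. The neurofilament genes Nefl (9.96, 6.75 and 6.24), Nefm (9.91, 6.57 and 6.31) and Nefh (10.07, 7.54 and 7.17) fell, as did Tuba4a and the dynein subunit Dync1i1. Tubulin genes are similar in sequence, so their probe sets may share signal.

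Axon guidance genes were also divided, with 4 of 49 rising and 4 falling. Dcc, a netrin receptor, rose by 4.56 ± 0.55 from 5.73 to 10.91 and 9.69 (limma adjusted p = 0.0237), and Sema3e, Robo1 and Plxnb2 rose by 1.94 to 2.34. Sema3a, Epha6, Unc5b and Unc5c fell, with differences between -2.36 and -1.50. In 53 cadherin and cell adhesion genes, 2 rose, Pcdh18 (6.26, 9.14 and 9.50) and Cdh20 (7.50, 10.16 and 10.09), and 6 fell, among them Cdh18 (10.12, 6.73 and 6.62), Cdh7 (8.96, 5.56 and 5.52) and Cntn4 (8.38, 5.55 and 5.49).

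Astrocyte and Bergmann glia markers were lower in 16 of 24 cases and 8 fell, with a median difference of -1.49. The gap junction gene Gja1 was at 11.33 in the cerebellum, 8.75 at 1 month and 8.80 at 2 months, and fell by 2.56 ± 0.26 on the log2 scale (limma adjusted p = 0.0176). Aldoc, the aldolase of astrocytes and of some Purkinje cells, went from 13.69 to 11.35 and 11.22. Gfap, the filament of reactive astrocytes, went the other way, with 7.60, 8.83 and 9.33, and did not pass the test (limma adjusted p = 0.0765). Myelin and oligodendrocyte markers fell in 9 of 21 cases, led by Aspa (7.72, 4.28 and 4.72), Ermn (8.85, 5.60 and 5.88) and Mag (9.77, 6.94 and 7.07). Mbp, myelin basic protein, was at 9.92, 8.61 and 8.56 (limma adjusted p = 0.0565).

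Of 16 oligodendrocyte precursor markers, 7 were at least 2-fold higher and 1 was at least 2-fold lower in both tumours. In this list 4 genes rose and none fell. C1ql1 rose from 6.67 to 10.69 and 10.38, and Pdgfra from 7.86 to 11.40 and 10.91. Cspg4 rose from 5.73 to 7.34 in both tumours, and Olig1 from 8.84 to 10.26 and 10.49. Olig2 was at 6.93, 8.81 and 9.67 and did not pass the test (limma adjusted p = 0.0534), though it passed under 5 of 6 other settings of the fit, with adjusted p between 0.000231 and 0.243. Pdgfra is also in the list of Hedgehog targets, so it was counted in both.

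Genes of microglia and macrophages were partly higher. Of 19 microglia markers, 8 were at least 2-fold higher and 6 rose, and of 27 macrophage and phagocyte genes, 12 were higher and 7 rose. The complement genes C1qa (7.56, 9.66 and 10.11), C1qb (6.99, 9.35 and 10.14) and C1qc (7.43, 9.88 and 10.50) rose by 2.32 to 2.76. Lyz2, the lysozyme of macrophages, rose by 5.48 ± 0.41 from 6.10 to 11.19 and 11.97 (limma adjusted p = 0.0161), though its probe set may also read the near-identical Lyz1. Gpnmb (6.01, 9.18 and 10.07) and Cd68 (6.81, 9.69 and 10.36), genes of phagocytes and their lysosomes, rose as well. The 11 microglia markers that were not 2-fold higher in both tumours had differences from 1.07 for Aif1 to -0.68 for Slc2a5. Among these, the fractalkine receptor Cx3cr1 was at 7.58, 8.32 and 8.29, the purinergic receptor P2ry12 at 5.86, 5.77 and 5.95, and Tmem119 at 6.48, 6.13 and 6.41. None of the 22 lymphocyte and neutrophil markers was 2-fold changed in both tumours, and 16 were under the lower quartile in the cerebellum.

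Acute phase and antigen presentation genes were partly higher. Of 39 chemokine, cytokine and acute phase genes, 6 rose and 2 fell. Lcn2, lipocalin 2, rose by 5.70 ± 0.33 from 5.33 to 11.28 and 10.78 (limma adjusted p = 0.0161), and Cp, Steap4, Saa3, Socs3 and Ccl3 rose by 1.83 to 2.30. The falls were in Mt3, a neuronal metallothionein, and Cx3cl1, a neuronal chemokine. Of 20 antigen presentation and complement genes, C4b, C3ar1 and H2-Aa rose, by 2.55, 2.50 and 1.53, and Cd59a fell. None of 26 interferon response genes passed the test, and Cxcl10 (5.41, 7.06 and 8.01) and Ifit2 (5.98, 7.29 and 7.94) were past 2-fold in both tumours.

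Markers of vessels and of tissues next to the cerebellum moved unevenly between the tumours. Endothelial and mural cell markers had a median difference of -0.34 at 1 month and 0.60 at 2 months, so the sign of the list depended on the tumour, and 2 of 26 fell, the barrier genes Ocln (7.35, 5.01 and 5.19) and Abcb1a (8.74, 7.15 and 7.10). The endothelial gene Pecam1 was at 6.88, 6.30 and 7.63. Fibroblast and meningeal genes were split, with 4 of 26 at least 2-fold higher, none of which passed the test, and 3 falling, Ogn, Slc6a20a and Ptgds. The choroid plexus and ependymal list had no gene past 2-fold the same way in both tumours, but Ttr, the transthyretin of choroid plexus, was at 6.23 in the cerebellum, 11.27 at 1 month and 4.50 at 2 months. The summed level of the choroid list was 9.87 (log2) in the cerebellum, 11.69 at 1 month and 9.68 at 2 months. That sum followed Ttr: without it, the other 18 genes summed to 9.75, 9.71 and 9.64, and 8 of the 19 genes were under the lower quartile in the cerebellum. None of the 6 erythroid genes passed the test. The part of these cell types in the other results was not tested.

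Some genes of energy metabolism were lower. Of 38 oxidative phosphorylation genes, 7 were at least 2-fold lower and the median was -0.77; only Ppargc1a, a regulator of mitochondrial genes, fell, from 8.04 to 5.65 and 5.56. Of 23 glycolysis genes, 5 fell and 1 rose. The hexokinase gene Hk2 rose by 2.38 ± 0.31 from 7.90 to 10.05 and 10.51 (limma adjusted p = 0.027). Eno2 (11.98, 7.74 and 7.49), the phosphofructokinase genes Pfkp (10.52, 8.15 and 7.70) and Pfkm (11.95, 9.82 and 9.55), and the kinase genes Pdk1 and Pdk2 fell. In 28 cholesterol and lipid synthesis genes, Srebf1 rose from 8.17 to 10.57 and 10.68 and Scd1 fell from 10.47 to 8.20 and 8.21.

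Clock output genes and genes that accompany neuronal maturation were lower in 15 of 28 cases, and 8 fell. Dbp (10.19, 8.15 and 8.27), Tef (10.11, 8.61 and 8.66) and Hlf (9.17, 7.38 and 7.32), 3 related factors controlled by the clock, fell together with the clock repressor Nr1d1 (10.50, 8.02 and 8.17) and the clock activator Arntl (8.40, 6.96 and 6.72). The orphan receptor Esrrg fell by 2.65 ± 0.33 (limma adjusted p = 0.025). Sources used here do not state the hour at which tissue was taken, and its part in these values was not tested.

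Signalling and matrix lists changed in part. At least 2-fold higher were 11 of 54 matrix genes (20.4%), 5 of 25 Notch genes (20%) and 4 of 35 Wnt genes (11.4%). In the same order, 4, 1 and 1 were at least 2-fold lower. Growth factor and receptor genes had 7 of 48 (14.6%) past 2-fold in each direction. Among BMP and TGF-beta genes, 1 of 35 was higher and 6 (17.1%) were lower. All genes had 5.36% higher and 7.52% lower. Genes that passed the test follow. Of 35 Wnt pathway genes, the feedback inhibitor Nkd1, the receptor Fzd2 and the antagonist Sfrp2 rose by 2.74 to 2.84, and Wnt7a, a ligand made by mature granule neurons, fell from 8.68 to 5.94 and 6.42. In 25 Notch pathway genes, Jag1 and Hey1 rose, by 2.05 and 1.60. Tgfb2 rose by 1.88 and Id4, Smad7 and Smad9 fell among 35 BMP and TGF-beta genes. Of 48 growth factor and receptor genes, Irs1 rose by 2.23, and Fgf14, Fgf12, Ntrk2, Ret and Fgfr3 fell. Fgf14 (10.42, 7.08 and 6.41) and Fgf12 (9.11, 6.75 and 6.46) encode partners of sodium channels rather than secreted factors. In 54 extracellular matrix genes, Lama5, Ncan and Col4a1 rose and the proteoglycan genes Spock1, Spock2 and Spock3 and the link protein Hapln4 fell.

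Other lists had few genes that passed the test. Of 38 cilium genes only Stil, a centriole duplication factor, rose, from 5.86 to 8.15 and 7.91. Among 25 immediate early genes, 4 (16%) were at least 2-fold higher and 1 (4%) at least 2-fold lower in both tumours. Ier5 and Fosl2 rose and Arc fell. In 30 stress and protein folding genes, Car9 and Bnip3, both known as hypoxia targets, fell, with differences of -1.46 and -1.83. Median differences of the lists of endothelial, choroid, cholesterol, immediate early, BMP, growth factor, cilium and stress genes changed sign with the tumour used or with another scaling or floor, so no direction is given for them.

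Of 20 imprinted and long noncoding genes, Nnat rose from 9.19 to 11.60 and 11.92, and Ndn (11.40, 8.45 and 8.22) and Rian (7.64, 5.18 and 4.30) fell. Rian lies on chromosome 12 between Meg3 and Mirg, in an imprinted locus whose maternal copy makes long noncoding RNAs and a large cluster of microRNAs. Meg3 itself was at 11.10 in the cerebellum, 8.65 at 1 month and 5.84 at 2 months, a difference of -3.86 ± 1.16 that did not pass the test, with the tumours 2.81 apart (limma adjusted p = 0.149). Dlk1, the gene of the paternal copy, was at 6.44, 6.98 and 7.08.

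MicroRNA precursors were examined next, a family chosen after its values had been seen. None of 300 precursor genes was at least 2-fold higher in both tumours, 18 were at least 2-fold lower and 8 fell. These counts all lie under the shares of all genes, 5.36% higher, 7.52% lower and 4.09% falling. Levels of 170 of the 300 were under the lower quartile in the cerebellum, and those of 165 in both tumours. Of the 18, 12 lay among the 40 precursors measured between Meg3 and Mirg, and of the 8 that fell, 7 did. The mature sequences of these 8 are shown from RefSeq (GRCm38.p6), 5′ to 3′, with the seed (bases 2 to 8), which pairs with target RNAs, in capitals. All 8 were found in the table, with 14 mature sequences. The arrays read precursor genes and do not tell the arms apart.
miR-380-5p: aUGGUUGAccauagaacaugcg
miR-380-3p: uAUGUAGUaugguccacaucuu
miR-376b-5p: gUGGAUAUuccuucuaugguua
miR-376b-3p: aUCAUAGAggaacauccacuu
miR-487b-5p: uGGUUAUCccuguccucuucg
miR-539-5p: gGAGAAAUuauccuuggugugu
miR-382-5p: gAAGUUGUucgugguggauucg
miR-382-3p: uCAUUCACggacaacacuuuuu
miR-154-5p: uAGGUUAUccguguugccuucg
miR-154-3p: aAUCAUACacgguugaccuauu
miR-377-5p: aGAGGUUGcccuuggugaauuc
miR-377-3p: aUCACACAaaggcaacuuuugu
miR-384-3p: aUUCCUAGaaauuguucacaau
miR-384-5p: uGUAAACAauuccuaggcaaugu

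All 14 seeds differ from each other, so no seed is shared within the set. Mir382 was at 7.10 in the cerebellum, 3.72 at 1 month and 3.61 at 2 months, and fell by 3.43 ± 0.26 on the log2 scale (limma adjusted p = 0.0161). Mir539 was at 5.85, 3.83 and 3.64, Mir380 at 5.73, 3.92 and 3.60, and Mir487b at 6.95, 5.28 and 4.71 in the same order. Mir154, Mir376b and Mir377 fell, with differences between -1.71 and -1.63, as did Mir384, on the X chromosome, with -1.87. Apart from Mir487b, the tumour levels of these genes were under the lower quartile of their arrays, so the size of each fall is not measured. Mir376b has close relatives in the cluster, Mir376a and Mir376c, whose signal it may share. Not all the locus was lower: Mir673 was at 7.64, 8.05 and 8.04, and Mir666 at 7.63, 7.66 and 7.84. Of the 40 precursors between Meg3 and Mirg, 16 were under the lower quartile in the cerebellum and 25 in both tumours.

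**Figure D5:**
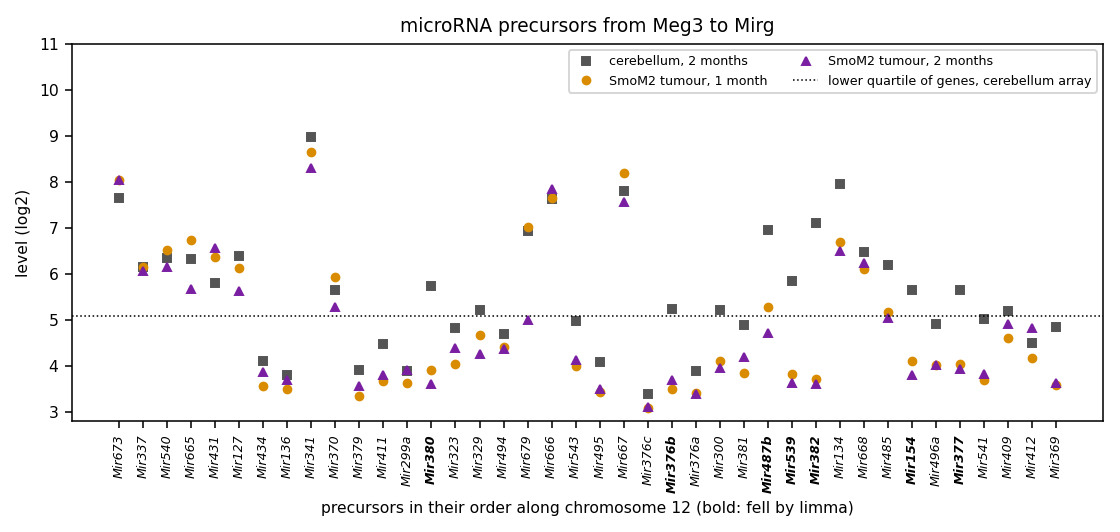
Levels (log2) of the 40 measured microRNA precursors between Meg3 and Mirg on chromosome 12, in their order along the chromosome, in the cerebellum (squares) and in the tumours at 1 month (circles) and 2 months (triangles); bold names fell by limma and the dotted line is the lower quartile of genes in the cerebellum array (5.09). The 12 lower precursors lie in the part from Mir380 to Mir369, among others that were not past 2-fold in both tumours.

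Single genes set the tumours apart. At least 2-fold differences between the tumours were found in 739 genes. Among sex-linked genes, Xist was at 4.91 in the cerebellum, 4.16 at 1 month and 9.50 at 2 months, and the Y-linked genes Eif2s3y (8.46, 8.17 and 3.63), Uty (8.68, 8.51 and 4.04) and Kdm5d (6.97, 7.10 and 4.09) were low in the 2-month tumour alone. The labels give no sex. By these genes the 2-month tumour reads as female and the other samples as male. Sex and age thus differ together between the tumours and cannot be told apart. Malat1, a nuclear noncoding RNA, was at 12.88, 12.57 and 9.41, and the angiopoietin gene Angpt2 at 5.28, 5.66 and 8.99. Hmox1, heme oxygenase, was at 6.19, 7.44 and 9.91 and Wif1, a Wnt inhibitor, at 6.59, 6.58 and 9.43. None of these passed the test of both tumours against the cerebellum, in which a gap between the tumours counts as spread. The difference between the tumours was not tested.

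The 2-fold rule has neighbours on both sides. Just inside it, Ahsa2 was at 7.42 in the cerebellum, 8.54 at 1 month and 8.42 at 2 months, and Carm1 at 8.24, 9.24 and 9.29; just outside it, Ctnnd1 was at 7.80, 9.04 and 8.80 and Rxra at 6.86, 7.86 and 8.56. Among lower genes, Slc30a9 (9.87, 8.87 and 8.75) and Rdh10 (9.12, 7.91 and 8.12) were just inside, and Zfp781 (9.12, 8.12 and 7.86) and Fam174b (7.98, 6.98 and 6.90) just outside.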

How the data were processed

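Gene expression was measured by the authors on Affymetrix Mouse Gene 1.0 ST arrays, with 1 array each for the 3 samples used here. The deposited table holds log2 expression values for 35557 probe sets, and the submitters' processing notes name Affymetrix Expression Console as the tool. Sources used here do not state its version, summarisation or normalization. That the scale is log2 follows from the range of the values, 2.71 to 14.86.

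By the platform annotation, 21789 probe sets had a single gene symbol, 1621 several and 12147 none, and 21698 of the former matched RefSeq by Entrez identifier (GRCm38.p6). Each gene was read by its brightest probe set on average, a choice that concerned 999 of 19938 genes. Among genes 2-fold changed in both tumours, 170 had several probe sets, and in 15 of these another differed in sign. Values were used as deposited, without filter. Tumours and cerebellum were compared with limma version 3.58.1 in R version 4.3.3 (lmFit on all single-symbol probe sets and eBayes, with 1 residual and 3.592 prior degrees of freedom), with Benjamini-Hochberg adjustment over genes. The script was tested on simulated data in which all genes and all arrays had the same spread. Such data cannot test the assumption that the lone cerebellum varies like the tumours. No detection calls were used, and the number of arrays limits the precision.

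The samples and the 56 gene lists (1762 entries, of which 1634 were measured, 41 through a synonym) were chosen with earlier results of these data known. Named genes were Ptch1, Smo, Gli1 and Atoh1, the 25 largest differences in each direction by the nearer tumour among 2-fold genes, and members of the lists; others are said to be chosen after their values were seen. Promoter letters were counted in the 250 bases before the first start listed in RefSeq, which 2628 genes have more than 1 of. Alternatives concerned normalization, centring, filter, floor, probe set, fold, prior variance and the tumours used.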

Additional observations from a re-analysis of the deposited data

Results flagged for a closer look

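In 6 genes the tumours moved at least 2-fold in opposite directions from the cerebellum. The difference between the tumours was not tested, since each age has 1 array. Ttr, the transthyretin of choroid plexus, was at 6.23 in the cerebellum, 11.27 at 1 month and 4.50 at 2 months, 6.78 higher at 1 month. For 2310067E19Rik the levels were 6.46, 9.69 and 5.06, so that the 1-month tumour was higher by 4.63. Mir181b-1 was at 6.63, 8.31 and 4.59, a gap of 3.73, Gm7265 at 7.44, 9.28 and 6.30, a gap of 2.98, and Phxr4 at 5.50, 6.78 and 4.06, a gap of 2.72. Bmp5, a ligand of the BMP family, ran the other way, at 8.28, 7.02 and 9.70, a difference of -2.68 between 1 and 2 months. Apart from Ttr and Bmp5 these genes are in no list and were singled out after their values were seen.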

How the results depend on the processing

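Of the alternatives to the count of 1069 higher and 1500 lower genes past 2-fold in both tumours, quantile normalization, centring on array medians, a filter or a floor at the lower quartile, the mean of a gene's probe sets and all probe sets each gave counts within 1.5 times, in both directions. A 4-fold rule left 349 higher and 434 lower genes. Using a single tumour gave between 1356 and 1879 higher genes and between 1974 and 1987 lower genes, the 1879 being those of the 2-month tumour alone. Limma's 552 rises and 816 falls became 1162 and 1547 after quantile normalization, which kept all of them and raised the prior degrees of freedom from 3.59 to 21.4. With values floored at the lower quartile of each array, limma called 0 genes in either direction. At an unadjusted limma p under 0.05 there were 1850 higher and 2291 lower genes. Genes floored in both tumours differ between them only as the floors do, 5.16 at 1 month and 5.17 at 2 months. The prior degrees of freedom fell to 0.966, and the reason for the lost calls was not tested. The other limma settings gave 611 to 733 rises and 911 to 1089 falls. Leaving out a tumour leaves no residual degree of freedom, so no test was possible there. No paired analysis was possible because the labels carry no replicate numbers and the cerebellum has 1 array. Of the 332 genes followed singly, 252 passed the test, and all of these lost the call under the floor. Apart from that, Actl6a, Bcl11a, Ftsj3, Olig1 and Tef lost it with a trended prior variance (adjusted p between 0.051 and 0.0673) and Socs3 with the mean of its probe sets (0.0581). In the other direction, 37 genes that missed the test passed it under another setting, 23 of them under quantile normalization only. Olig2 and Rims1 passed under 5 of 6 settings and Disp2, Mbp, Pold1 and Ptch1 under 4; Meg3 passed with quantile normalization (adjusted p = 7.94e-05) and with a trended prior (0.038). Levels under the lower quartile, of 5.09 to 5.17, limit the size of differences that start or end there.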

Other observations

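Some of the larger differences lay in genes of no list, chosen here after their values were seen. Rassf4, a Ras association domain gene, was at 6.32 in the cerebellum, 10.70 at 1 month and 10.55 at 2 months, and rose by 4.31 ± 0.26 (limma adjusted p = 0.0161). Mex3a, an RNA-binding protein gene of progenitors, rose by 4.51 ± 0.28 from 5.75 to 10.39 and 10.13. Hsd11b2, the enzyme that inactivates glucocorticoids and is known in granule progenitors, was at 5.73, 9.98 and 11.16. Cd24a, a surface protein of immature neurons, was at 7.51, 11.68 and 11.28. Myod1, the transcription factor best known from muscle, rose from 5.99 to 8.48 and 9.63 (limma adjusted p = 0.0469). Phagocyte genes outside the lists rose as well, with Cybb at 4.92, 8.13 and 8.49, Cst7 at 4.70, 7.85 and 7.95 and Mpeg1 at 6.46, 9.48 and 9.90. Among falls, Slc12a5, the chloride exporter of mature neurons, was at 11.25, 7.86 and 7.24, the opioid peptide precursor Penk at 11.25, 7.48 and 7.65, and Eef1a2, the elongation factor of neurons and muscle, at 11.96, 8.69 and 8.29.

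Gene families were read by the start of their symbols, also after the values had been seen. Among all genes, 5.36% were at least 2-fold higher and 7.52% lower in both tumours, and 2.77% rose and 4.09% fell. Of 12 genes beginning with Camk, calcium/calmodulin-dependent kinases and relatives, 9 were at least 2-fold lower in both tumours and 5 fell. Of 70 Rab genes, vesicle traffic regulators, 12 (17.1%) were lower and 5 fell. Of 92 Kcn genes, potassium channels, 25 (27.2%) were lower, 18 fell and 2 were at least 2-fold higher. Of 12 Mcm genes, 9 were at least 2-fold higher and 7 rose. None of 1027 olfactory receptor genes (Olfr) and none of 48 genes beginning with Mrpl was past 2-fold in both tumours. Genes beginning with Rpl or Rps, most of them ribosomal proteins, were at least 2-fold higher in 11 of 39 and 12 of 32 cases, and 1 and 6 rose. In the other direction, 1 Rps gene was at least 2-fold lower.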
